A study of Mus musculus with 6 samples.

Results

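Amino acid transporters are membrane proteins that carry amino acids into and out of the cell, and 10 genes of this kind were followed by name through the differentiation of murine erythroleukemia (MEL) cells. They are Slc7a5, Slc3a2, Slc43a1, Slc7a1, Slc7a11, Slc1a4, Slc1a5, Slc38a1, Slc38a2 and Slc6a9, 10 of the 23896 genes with a symbol among the 32654 deposited RefSeq transcripts. The members were given as a list of names, whose rule used no measured value although earlier results of these data were known when it was drawn up, and each is represented by its transcript with the highest mean count. MEL cells are a mouse leukemia line arrested at the proerythroblast stage, which DMSO at 2% releases into terminal erythroid differentiation. All cultures were of this line, unsorted, in the same serum-containing medium, and mRNA-seq was made on 2 cultures at each of 0, 2 and 4 days of DMSO, giving 6 libraries. Day 0 is the only reference, and no culture kept without DMSO until day 2 or day 4 is among these libraries, so time in culture and treatment cannot be told apart.

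These proteins work by exchange, by facilitated diffusion or by coupling to sodium. SLC7A5 and SLC7A11 are light chains that reach the cell surface bound to the heavy chain SLC3A2, and bring in large neutral amino acids such as leucine and, respectively, cystine for glutathione synthesis. SLC43A1 also carries large neutral amino acids but needs no heavy chain, and SLC7A1 carries arginine and lysine. SLC1A5 and SLC1A4 exchange alanine, serine and cysteine, and SLC1A5 also glutamine. SLC38A1 and SLC38A2 take up glutamine and other small neutral amino acids with sodium. SLC6A9 takes up glycine, which with succinyl-CoA is the starting material of heme, so that a red cell precursor needs glycine for hemoglobin as well as for protein. Leucine and arginine that enter the cell are sensed by the kinase complex mTORC1, whereas a lack of amino acids raises translation of the transcription factor ATF4, whose known targets include several of these transporter genes.

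Counts on transcripts summed to between 35294930 and 53899476 per library. The cells carried the erythroid identity of their label, since all 12 matched genes of a list of 13 erythroid markers lay above 3 counts on every day and their summed level, in CPM (the usual count per library size, with library totals scaled by edgeR's TMM factors), went from between 1219 and 1250.4 at day 0 to between 5117 and 6106 at day 2 and between 21874 and 24145 at day 4. Of 21 matched markers of other blood cells, 10 were at or under 3 counts in each library of day 0, 13 at day 2 and 15 at day 4, among them Cd3e, Cd4, Cd8a, Ms4a1, Itgam, Elane, S100a8 and S100a9 on every day. Of these 21, Ptprc, Cd79b, Csf1r, Cpa3, Fcer1a, Pf4 and Itga2b reached a mean of 1 CPM at day 0. Ptprc, Cd3g, Pf4 and Itga2b did so at day 2, and Ptprc, Pf4 and Itga2b at day 4. At day 0 the 21 markers summed to between 304 and 308 CPM. Their sum lay between 231 and 250.3 CPM at day 2 and between 552 and 626 at day 4. Most of the sum was Itga2b, an integrin of megakaryocytes and of early progenitors, which went from 218 ± 13.0 to 569 ± 53.3 CPM. Ptprc, the leukocyte antigen CD45, fell from 31.5 ± 0.115 to 9.10 ± 0.0974 CPM over the 4 days (SD, n = 2; adjusted p in edgeR = 5.28e-07). The 11 markers of fibroblasts and epithelium summed to between 10.6 and 10.999 CPM at day 0, where Col1a1, Pdgfrb and Krt8 reached 1 CPM, between 3.79 and 4.67 at day 2 and between 2.19 and 2.85 at day 4, with Col1a2, Col3a1, Dcn, Lum, Krt18 and Cdh1 at or under 3 counts on every day. The part of these shifts in the values of the transporters was not tested, and in such bulk libraries fewer cells of a kind and less of an RNA in each cell cannot be told apart.

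Over the 4 days, 7 transporter mRNAs fell and 2 rose, and Slc38a1 could not be tested. The glycine transporter Slc6a9 rose 3.26-fold and Slc43a1 1.92-fold, whereas Slc7a11 fell to 0.0922 of its day 0 level and Slc7a5, Slc3a2, Slc7a1, Slc1a4, Slc1a5 and Slc38a2 fell to between 0.445 and 0.637 of theirs. All 9 tested genes passed an edgeR adjusted p below 0.05 for day 4 against day 0, where the same threshold called 71.8% of the 12381 tested genes, 35.5% higher and 36.4% lower, so that a call by itself was common. The median log2 fold change of the 9 was -0.86, beside -0.02 for all tested genes. In each of the 9, every day 4 library lay apart from every day 0 library in the direction of the change. How common this was among all tested genes was not counted.

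**Figure D1:**
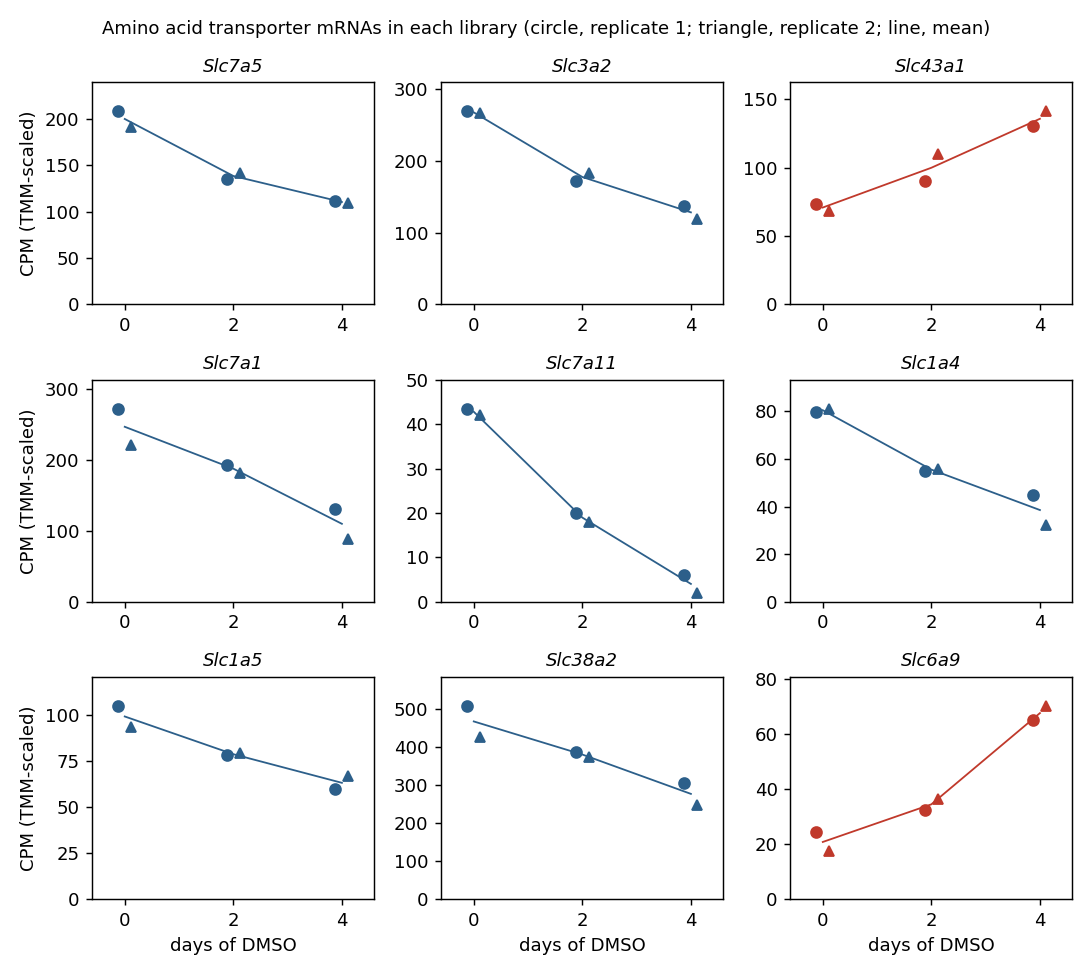
Levels of the 9 tested transporter mRNAs in each library, as TMM-scaled CPM on linear axes from 0 against days of DMSO, with a circle for replicate 1, a triangle for replicate 2 and a line through the means. Slc43a1 and Slc6a9 (red) go up at both steps, from 70.8 to 136 and from 20.8 to 67.7 CPM, and the 7 others (blue) go down.

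The first step, day 2 against day 0, called 7 of the 9 genes, 2 higher and 5 lower, where 62.5% of all tested genes were called, 31.0% higher and 31.5% lower. The falls of Slc7a1 (log2 fold change -0.39, standard error (SE) 0.17, adjusted p in edgeR = 0.0612) and Slc38a2 (-0.30, SE 0.14, adjusted p in edgeR = 0.0787) did not pass. With the second day 2 library left out, every direction held, but fewer of the members and fewer of all tested genes were called. With total counts in place of TMM factors 5 of the 9 were called, 2 higher and 3 lower. Total counts also moved the split over all genes, to 5001 higher and 2881 lower calls from 3841 and 3902, and their median log2 fold change for this step to 0.21 from 0.01. The second step, day 4 against day 2, called all 9 in the same directions, 2 higher and 7 lower, against 30.3% of all tested genes, 14.0% higher and 16.2% lower. Here total counts gave 1228 higher and 2532 lower calls over all genes in place of 1739 and 2010, and again called the 9 members. These second-step calls rested on few libraries. With 1 library of day 2 or day 4 left out, fewer of the members were called at this step, and so were fewer of all tested genes. Every direction held in these fits. With each library left out in turn, the second-step change ranged from -3.19 to -1.67 for Slc7a11 on the log2 scale. The range was 0.89 to 1.06 for Slc6a9 and -0.41 to -0.24 for Slc1a5.

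Both steps were called lower for Slc7a5, Slc3a2, Slc7a11, Slc1a4 and Slc1a5, 5 of the 9 (9.05% of all tested genes), and both were called higher for Slc6a9 and Slc43a1, 2 of the 9 (8.33% of all tested genes). Whether a gene changed more in one step than in the other was tested as a contrast of the steps in the same fit. That contrast called 0 of the 9 members with edgeR (adjusted p from 0.129 to 0.987, and 0 at an unadjusted p under 0.05) and 0 with DESeq2, where edgeR called 30.0% of all tested genes. Slc7a11 came nearest, with a second step of -2.26 against a first of -1.17 and a difference of -1.09 (95% interval from -2.21 to 0.03). The interval is wide, so these libraries do not show that its steps were alike. With the first day 4 library left out, the difference for Slc7a11 was -2.02 (adjusted p in edgeR = 0.000961), and with the second day 0 library left out that of Slc6a9 was 0.47 (adjusted p in edgeR = 0.0445).

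**Figure D2:**
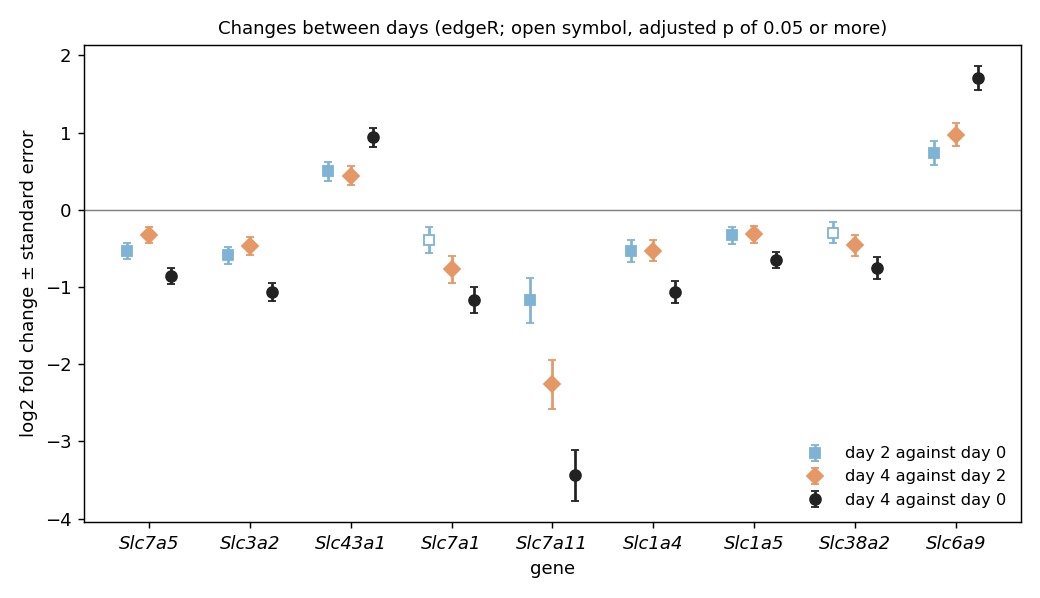
Log2 fold changes with their standard errors for the 9 tested genes in the 3 comparisons between days, from the edgeR fit over 6 libraries. Open symbols mark an adjusted p of 0.05 or more, which holds only for Slc7a1 and Slc38a2 at day 2 against day 0, and Slc7a11 reaches -3.44 at day 4 against day 0.

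The large neutral amino acid system was measured through its light chain, its heavy chain and a separate carrier. Slc7a5 (NM_011404, gene span on chromosome 8 from 121881146 to 121907686 of GRCm38, as for the spans given with the other genes) had 208 and 192 CPM in the day 0 libraries, 135 and 142 at day 2, and 111 and 109.9 at day 4. The days did not overlap, and the steps had log2 fold changes of -0.53 (SE 0.10, adjusted p in edgeR = 0.00114) and -0.33 (SE 0.10, adjusted p in edgeR = 0.0361), with no difference between the steps passing the test (adjusted p in edgeR = 0.426). With total counts the steps were -0.33 and -0.41, and the second was not called with any library of day 2 or day 4 left out (adjusted p in edgeR from 0.132 to 0.210). Over the whole course it fell by 0.86 on the log2 scale (SE 0.11, adjusted p in edgeR = 2.39e-05). Its heavy chain Slc3a2 (NM_008577, chromosome 19 from 8706882 to 8723369), which encodes the surface antigen CD98, had 269 and 266 CPM at day 0, 172 and 182 at day 2, and 138 and 119 at day 4. The steps were -0.59 (adjusted p in edgeR = 0.000975) and -0.47 (adjusted p in edgeR = 0.0109), and day 4 against day 0 gave -1.06 (SE 0.12, adjusted p in edgeR = 9.22e-06). A second transcript of the gene, NM_001161413, held nearly the same counts and gave -1.06 as well.

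Slc43a1 (NM_024497, chromosome 2 from 84838855 to 84863586) went the other way, with 73.4 and 68.3 CPM at day 0, 90.2 and 109.7 at day 2, and 130.3 and 141 at day 4. The day 2 libraries lay apart from each other by more than those of the other days, yet no day overlapped another. Its log2 fold changes were 0.50 (SE 0.12, adjusted p in edgeR = 0.00385) and 0.44 (SE 0.12, adjusted p in edgeR = 0.0175) for the steps and 0.94 for the whole course (SE 0.12, adjusted p in edgeR = 3.26e-05). Per kilobase of transcript, which sets genes of different length on a like scale, Slc7a5 was at 2.06 and 2.04 times the level of Slc43a1 in the day 0 libraries, 1.09 and 0.94 times at day 2, and 0.62 and 0.57 times at day 4. The carrier that needs no heavy chain thus passed the heavy chain's main partner in level between day 0 and day 4, with the libraries of day 2 on either side of equality.

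Slc3a2 pairs with further light chains, which were read beside it. Slc7a6 and Slc7a7, which exchange cationic for neutral amino acids, did not move alike. Slc7a6 was at 38.9 ± 6.37 CPM before DMSO and 38.5 ± 2.76 CPM after 4 days (SD, n = 2; log2 fold change -0.01, 95% interval from -0.30 to 0.27, adjusted p in edgeR = 0.929), whereas Slc7a7 fell from 26.0 ± 1.49 to 5.64 ± 0.951 CPM (-2.21, SE 0.15, adjusted p in edgeR = 2.92e-07). Slc7a8, a second light chain for neutral amino acids, rose from 2.60 ± 0.345 to 4.91 ± 1.25 CPM (0.91, adjusted p in edgeR = 0.00272), and Slc7a10 had 0 counts in each library, which allows up to 0.0831 CPM at the depth of the shallowest. Summed per kilobase, the 6 light chains were at 88.0 and 79.9 CPM per kb in the day 0 libraries, 58.0 and 60.5 at day 2, and 47.2 and 44.4 at day 4. Slc7a5 made up most of this sum in each library. The ratio of Slc3a2 to the sum was 1.68 and 1.83 at day 0, 1.63 and 1.66 at day 2, and 1.60 and 1.47 at day 4. Slc3a2 and the sum thus both came down, and the ratio was lower in both day 4 libraries than in either day 0 library. This is a description and was not tested.

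Slc7a1, the high-affinity carrier of cationic amino acids (NM_007513, chromosome 5 from 148327410 to 148399904), had 272 and 222 CPM at day 0, 194 and 182 at day 2, and 131 and 89.3 at day 4. The days did not overlap, but replicates lay far apart at day 0 and day 4. Its log2 fold change was -0.77 at the second step (SE 0.17, adjusted p in edgeR = 0.00676) and -1.17 for the whole course (SE 0.17, adjusted p in edgeR = 9.44e-05). The other named gene of its kind, Slc7a3, which also carries arginine and lysine, rose from 0.595 ± 0.129 to 3.58 ± 0.427 CPM by day 2 and then stood at 3.78 ± 0.0278 (SD, n = 2; 2.67 for day 4 against day 0, SE 0.24, adjusted p in edgeR = 2.17e-06). Its level at day 4 was still far under that of Slc7a1.

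Slc7a11, the cystine carrier (NM_011990, chromosome 3 from 50364936 to 50499087), showed the steepest fall of the 10. It had 43.5 and 42.2 CPM at day 0, 20.0 and 18.0 at day 2, and 5.98 and 2.08 at day 4, from 2093 counts in the deepest library down to 216 and 94 counts at day 4. The day 4 replicates differed more than those of any earlier day, though both lay far under day 2. Its log2 fold changes were -1.17 (SE 0.29, adjusted p in edgeR = 0.00432; adjusted p = 0.0552 with DESeq2), -2.26 (SE 0.32, adjusted p in edgeR = 0.000793) and, for day 4 against day 0, -3.44 (SE 0.33, adjusted p in edgeR = 3.6e-06). Without the first day 4 library the last value was -4.36 and without the second it was -2.85. About 2.09% of the 32-base words of this transcript also occur in transcripts of other genes.

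The promoter of Slc7a11 is shown because it alone, of the 10 promoters that RefSeq's GRCm38.p6 table holds for 7 of the 10 members, matched TGATGNAA, the core of the composite site bound by ATF4 with C/EBP proteins. The 250 bases before the RefSeq start, chr3:50443614-50443863 on the minus strand, lie next to the matched GENCODE transcript, which starts at 50443611 on that strand, and inside the wider gene span given above. They are printed 5′ to 3′ with the matches in capitals.
Slc7a11 promoter: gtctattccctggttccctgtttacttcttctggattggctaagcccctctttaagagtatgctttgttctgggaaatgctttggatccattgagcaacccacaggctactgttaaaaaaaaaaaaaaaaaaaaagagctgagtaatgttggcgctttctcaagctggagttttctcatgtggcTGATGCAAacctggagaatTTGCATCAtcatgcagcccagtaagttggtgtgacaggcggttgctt
The matches lie 66 to 59 bases before the start on the forward strand and 47 to 40 bases before it on the reverse strand, and do not overlap each other or another motif searched. Of all 32851 promoter windows of this length, 3.45% held TGATGNAA on either strand. The E-box CACGTG, a site of MYC and its relatives, was found for Slc43a1 only, 64 to 59 bases before the start in RefSeq's promoter table, and is held by 6.02% of all windows. That place lies inside the gene span given above and inside the matched GENCODE transcript, which begins at 84840199. It is shown with its flanks, chr2:84840247-84840276 on the plus strand, the match in capitals.
Slc43a1 site: agggtctccctcCACGTGgcagccgtggga
TGATAA and AGATAA, forms of the GATA factor site, were searched on both strands as well and occur in 7.94% and 9.99% of all windows, but in none of the 10 windows of the members. A match of letters is a description of the window, and no binding was measured here. The table holds no window for Slc7a5, Slc1a5 or Slc38a1.

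The neutral amino acid exchangers Slc1a4 and Slc1a5 fell together. Slc1a4 (NM_018861, chromosome 11 from 20302180 to 20332713) had 79.9 and 81.1 CPM at day 0, 55.2 and 55.9 at day 2, and 44.9 and 32.3 at day 4. Its replicates were close until day 2 and apart at day 4, and over the whole course it changed by -1.06 on the log2 scale (SE 0.14, adjusted p in edgeR = 4.49e-05). Slc1a5, the glutamine carrier (NM_009201, chromosome 7 from 16781334 to 16798274), had 105 and 93.9 CPM at day 0, 78.3 and 79.5 at day 2, and 59.7 and 66.9 at day 4. It showed the smallest change of the 9, -0.65 for the whole course (SE 0.11, adjusted p in edgeR = 0.000238), in steps of -0.33 (adjusted p in edgeR = 0.0187) and -0.32 (adjusted p in edgeR = 0.0456). The second of these steps stood close to the threshold and was not called with the replicate number as a block (adjusted p in edgeR = 0.0572) nor with relative log expression factors (0.0512), nor with 1 transcript per gene (0.0509), nor with any library of day 2 or day 4 left out. The first was not called with total counts (log2 fold change -0.14, adjusted p in edgeR = 0.296), nor without the first (0.111) or the second (0.0932) day 2 library. With total counts the first step of Slc1a4 also missed the threshold (-0.34, adjusted p in edgeR = 0.0616).

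Of the sodium-coupled pair, Slc38a2 (NM_175121, chromosome 15 from 96687392 to 96699728) was measured with the highest counts of the 10. It had 507 and 427 CPM at day 0, 387 and 374 at day 2, and 305 and 248 at day 4, without overlap between days. The whole course gave a log2 fold change of -0.76 (SE 0.14, adjusted p in edgeR = 0.000467) and the second step -0.46 (SE 0.14, adjusted p in edgeR = 0.0277). Its relative Slc38a1 (NM_001166456, chromosome 15 from 96571418 to 96643438) had 1 count in each of 3 libraries and 0 in the other three, which is at or under the floor of 3 counts per library on every day, and the other transcripts of Slc38a1 held identical counts. The MEL cells therefore carried Slc38a2 mRNA but no Slc38a1 mRNA detectable at this depth. Slc38a5, another sodium-coupled carrier of this family for glutamine, glycine and serine, rose from 44.7 ± 1.34 to 164 ± 33.9 CPM (SD, n = 2; 1.87, SE 0.15, adjusted p in edgeR = 8.61e-07).

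Slc6a9, the glycine transporter GLYT1 (NM_008135, chromosome 4 from 117835258 to 117869305), rose most of the 10. It had 24.3 and 17.4 CPM at day 0, 32.5 and 36.5 at day 2, and 65.2 and 70.2 at day 4. Each day stood clear above the one before, with log2 fold changes of 0.73 (SE 0.15, adjusted p in edgeR = 0.00166) and 0.97 (SE 0.15, adjusted p in edgeR = 0.00121) for the steps and 1.70 for day 4 against day 0 (SE 0.15, adjusted p in edgeR = 2.52e-06). In GENCODE, 1429 of the 3479 bases of this transcript lie opposite exons of Ccdc24, 511 opposite the noncoding Gm17114 and 46 opposite B4galt2, and how the counts used strand is not given in the sources used here. Ccdc24 itself had 30 counts over the 6 libraries and B4galt2 had 88, against 10535 for Slc6a9, and Gm17114 was not analysed here. The mitochondrial glycine carrier Slc25a38, which acts at the next step of the glycine route to heme, went the other way, from 45.6 ± 3.17 to 36.2 ± 3.01 and 26.4 ± 2.36 CPM (SD, n = 2; -0.79 for day 4 against day 0, SE 0.12, adjusted p in edgeR = 0.000144).

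The order of the transporters by level per kilobase changed over the course. At day 0, Slc3a2 stood first (146 to 148 CPM per kb), followed by Slc38a2 (91.7 to 109), Slc7a5 (54.5 to 59.3), Slc1a5 (34.0 to 38.0), Slc7a1 (30.9 to 38.0), Slc43a1 (26.7 to 28.7), Slc1a4 (20.4 to 20.7), Slc6a9 (4.99 to 6.98) and Slc7a11 (4.57 to 4.72). Of these neighbours only Slc1a5 and Slc7a1 overlapped. At day 4 the order was Slc3a2 (65.2 to 75.6), Slc38a2 (53.3 to 65.5), Slc43a1 (51.0 to 55.3), Slc7a5 (31.2 to 31.6), Slc1a5 (21.6 to 24.2), Slc6a9 (18.7 to 20.2), Slc7a1 (12.4 to 18.2), Slc1a4 (8.22 to 11.4) and Slc7a11 (0.225 to 0.649), with overlap between Slc3a2 and Slc38a2 and between Slc38a2 and Slc43a1. Summed over the members, the level was 453 and 414 CPM per kb at day 0, 332 and 345 at day 2, and 294 and 270.2 at day 4. Slc43a1 made up 6.35% and 6.45% of that sum in the day 0 libraries and 17.3% and 20.4% in those of day 4, and Slc6a9 1.54% and 1.21% at day 0 and 6.37% and 7.47% at day 4. These levels use the lengths of the matched GENCODE transcripts, and a different transcript end in MEL cells would shift them.

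**Figure D3:**
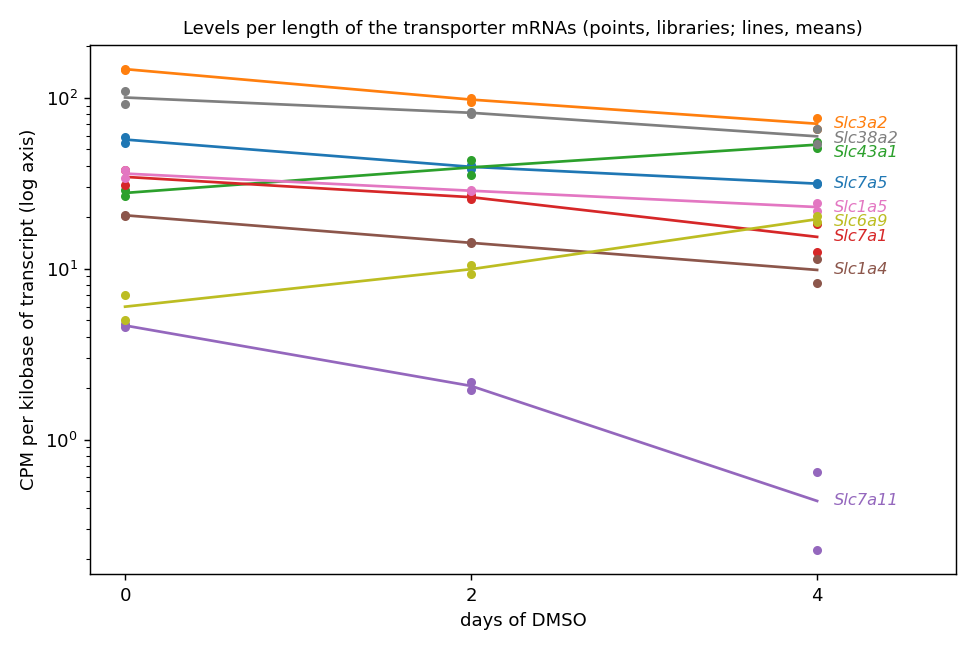
Levels of the 9 transporter mRNAs as CPM per kilobase of transcript (log axis) against days of DMSO, with a point for each library and a line through the means. Slc43a1 crosses above Slc7a5 and Slc6a9 above Slc7a1 by day 4, and Slc7a11 drops to between 0.225 and 0.649 CPM per kb.

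The genes whose log2 CPM followed a member most closely over the 6 libraries were read as a description. For Slc6a9, these were Araf, Gtpbp1 and Proser1 (Pearson r = 0.999 each), out of 91 genes with r above 0.99. For Slc7a11 they were 4930430F08Rik (r = 0.999), Rsad1 (0.998) and 1110038B12Rik (0.996), out of 41 such genes. With 3 days in order, many genes follow any steady rise or fall, and the points share days and depth.

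Other amino acid transporters of the plasma membrane were read beside the members. The list was drawn up by name, and where in the cell each protein works was not measured here. Of 39 genes listed as such outside the 10, 12 passed the filter on low counts. For day 4 against day 0, 8 of the 12 were higher, 2 lower and 2 not called. Of all tested genes, 35.5% were called higher and 36.4% lower. The median log2 fold change of the 12 was 0.79, beside -0.02 for all tested genes. The largest rises with an average of at least 1 on the log2 CPM scale were those of Slc7a3 and Slc38a5, and the largest falls those of Slc7a7 and Slc38a7 (-0.44, SE 0.18, adjusted p in edgeR = 0.0453). The list had 1 lower call in place of 2 with total counts, with 2 days in the fit and with the replicate block, and 4 with no filter. Its higher calls went from 8 to 7 with DESeq2 and with relative log expression factors. They were also 7 with 2 days in the fit and with the replicate block, and 9 with no filter. At the first step 6 of the 12 were called higher and 3 lower (31.0% and 31.5% of all tested genes), and at the second 3 higher and 1 lower (14.0% and 16.2%). The list and the members are both choices made with earlier results of these data known, and the difference between them was not tested.

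Among carriers of mitochondria and lysosomes, 15 of 19 listed genes were tested and 10 were called for day 4 against day 0, 6 higher and 4 lower, with a median of 0.09, a share near the 71.8% called over all tested genes. Sfxn3, a sideroflexin of the family that carries serine into mitochondria, rose from 7.60 ± 0.310 to 45.0 ± 0.404 CPM (2.56, adjusted p in edgeR = 3.08e-08), and Slc38a9, the arginine sensor of the lysosome, from 17.6 ± 0.857 to 37.6 ± 0.239 CPM (1.09, adjusted p in edgeR = 6.05e-06). The aspartate and glutamate carriers Slc25a12 and Slc25a13 fell, by 0.89 and 1.55 on the log2 scale (adjusted p in edgeR = 1.55e-05 and 2.16e-06).

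In the list of amino acid sensing by mTORC1, 35 genes were matched and 33 tested. For day 4 against day 0, 21 of these were called, 11 higher and 10 lower, beside 71.8% called over all tested genes. The list median was 0.03. Sesn3, a sestrin that restrains mTORC1, rose from 15.6 ± 1.03 to 114 ± 0.231 CPM (2.87, adjusted p in edgeR = 1.88e-08), and Castor2, of the family of the cytosolic arginine sensor, from 2.92 ± 0.0600 to 9.91 ± 1.48 CPM (1.76, adjusted p in edgeR = 3.44e-06). Lars, the leucyl-tRNA synthetase, fell from 307 ± 2.63 to 78.8 ± 15.8 CPM (-1.96, adjusted p in edgeR = 4.91e-07), and Sec13, shared by the GATOR2 complex and vesicle coats, from 138 ± 31.8 to 55.4 ± 1.07 CPM (-1.32, adjusted p in edgeR = 8.89e-06).

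The amino acid response genes around ATF4 had more lower than higher calls. Of 27 genes, 26 were tested, and 19 were lower, 5 higher and 2 not called for day 4 against day 0, with a median of -1.41, beside 36.4% lower and 35.5% higher over all tested genes. At the first step 18 were lower and 5 higher (31.5% and 31.0% of all tested genes), and at the second 12 lower and 2 higher (16.2% and 14.0%). Cth, which makes cysteine from cystathionine, had 51.5 and 57.0 CPM at day 0, 9.77 and 7.75 at day 2, and 3.08 and 3.18 at day 4, a log2 fold change of -4.11 (adjusted p in edgeR = 1.09e-08). Phgdh, the first enzyme of serine synthesis, went from 324 ± 70.4 to 28.1 ± 6.43 CPM (-3.53, adjusted p in edgeR = 7.44e-08). The 5 higher genes were the kinases of eIF2 that act upstream of ATF4, Eif2ak1 (1.33, adjusted p in edgeR = 2.37e-06), Eif2ak2 (0.79), Eif2ak3 (0.33) and Eif2ak4 (0.29) and Ppp1r15a, a phosphatase subunit that reverses their action and is itself induced in this response (1.09, adjusted p in edgeR = 7.14e-06), of which Eif2ak2, Eif2ak3 and Eif2ak4 were singled out after their values were seen. Atf4 mRNA itself, also singled out in this way, went from 536 ± 133 to 154 ± 36.1 CPM (-1.80, adjusted p in edgeR = 7.71e-06).

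The genes listed for glutathione synthesis and use were mixed. All 14 were tested, and 6 were higher, 5 lower and 3 not called for day 4 against day 0, with a median of 0.11, beside 71.8% called over all tested genes. Glrx5, a glutaredoxin of iron-sulfur cluster assembly, rose from 113 ± 21.2 to 241 ± 3.02 CPM (1.09, adjusted p in edgeR = 2.59e-05) and Glrx from 8.48 ± 0.172 to 13.4 ± 2.69 CPM (0.67, adjusted p in edgeR = 0.00274). Among genes of at least 1 on the average log2 CPM scale, the largest falls were those of Cth, given above, and of Cbs, the enzyme before it on the way from homocysteine to cysteine, which fell from 6.63 ± 0.475 to 0.772 ± 0.190 CPM (-3.08, adjusted p in edgeR = 7.23e-07). Slc7a11, Cbs and Cth mRNAs were all lower at day 4, where Cbs and Cth had been named for the size of their falls.

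**Figure D4:**
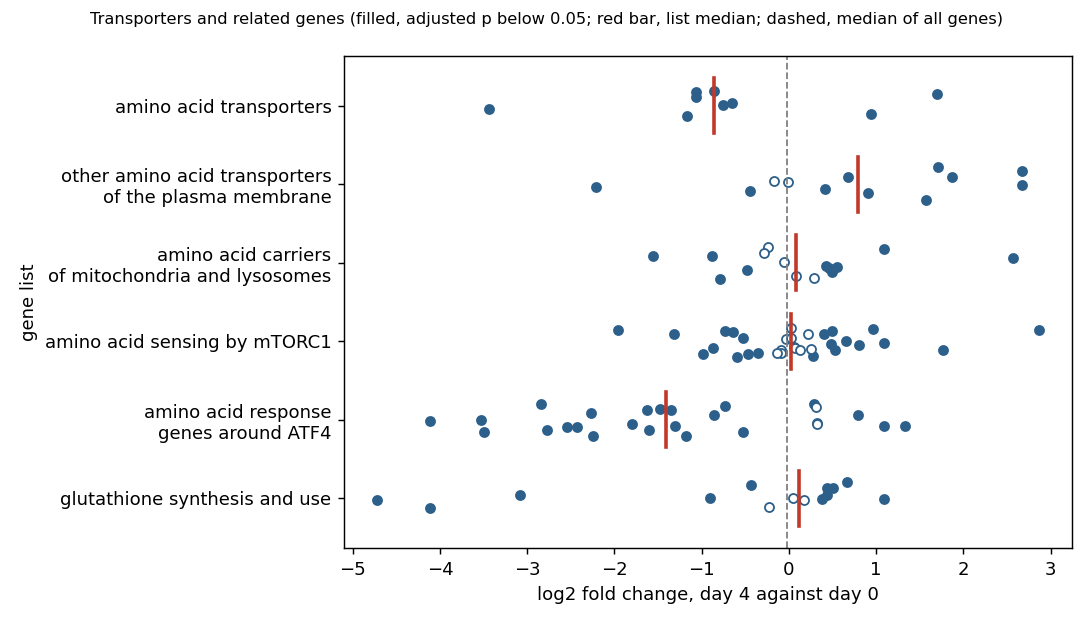
Each tested gene, by list, at its log2 fold change between day 0 and day 4, with filled points for an edgeR adjusted p below 0.05, a red bar at the list median and a dashed line at the median of all tested genes (-0.02). The amino acid response genes have a median of -1.41, the 9 transporters -0.86 and the other plasma membrane transporters 0.79.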

How the data were processed

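Murine erythroleukemia cells were sampled at 0, 2 and 4 days of 2% DMSO, with 2 cultures per day, grouped by the titles of the samples. The authors trimmed adapters with cutadapt, aligned stranded poly(A) libraries to mm10 with TopHat, and deposited the raw counts of reads on RefSeq transcripts, and the submitters' processing notes also name HTSeq and DESeq2. The counting mode, its strand setting and the annotation release are not given in the sources used here. The 5 rows that name no transcript were left out, of which reads on no feature made up 50.5% to 58.4% of each library and the other rows were at 0.

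A RefSeq table (GRCm38.p6) gave symbols for 32195 transcripts GENCODE M21 for 191 more, and 268 had none. The counts were tested with edgeR 4.0.16 (R 4.3.3), with TMM factors, filterByExpr by day (18351 transcripts kept, 12381 of them standing for a gene), 1 quasi-likelihood fit over the 6 libraries and Benjamini-Hochberg adjustment over all kept transcripts, with a call at an adjusted p below 0.05. Each standard error is the size of the log2 change divided by the root of its F statistic. The code was tested on simulated data. The members, lists and motifs were chosen with earlier results of these data known. Named from each list were the 2 largest called rises and falls at day 4 among genes whose log2 CPM averaged 1 or more. With 2 libraries against 2, an exact permutation test cannot go below 0.333, so no such test was made. Alternatives were DESeq2 1.42.0, other scaling, no filter, 2 days per fit, a replicate block, 1 transcript per gene, the next transcript, a limit on the size of a change and leaving out each library, where a lone library was taken to vary like the other days.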

Additional observations from a re-analysis of the deposited data

How the results depend on the processing

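The log2 fold changes of the tested transporters under the alternatives made 384 values over genes, comparisons and settings, and none turned its direction. Where no single library was left out, every call for day 4 against day 0 was kept. In these same settings, calls of single steps were lost for 6 of the values and gained for 6. With each library left out in turn, no tested member changed direction at either step or from day 0 to day 4. Without a library of day 2, fewer members and fewer of all tested genes were called at both steps. The same held at the second step without a library of day 4. The loss of calls was thus not particular to the transporters. A limit of 1 on the size of the log2 change left fewer called genes, which follows from that limit. They were 1 at the first step, 1 at the second and 5 for day 4 against day 0. The contrast of the steps called 1 gene with no filter and between 0 and 1 with a library left out, and the cause was not tested. Its uncalled values turned sign with total counts for Slc7a5 (-0.078), Slc3a2 (-0.16), Slc1a4 (-0.27), Slc1a5 (-0.27) and Slc6a9 (-0.040), and for Slc1a4 with no filter (-0.0072), the replicate block (-0.0040) and 1 transcript per gene (-0.0029). With a library left out it ranged from -0.25 to 0.23 for Slc1a4, -0.071 to 0.099 for Slc1a5, -0.025 to 0.47 for Slc6a9 and -0.32 to 0.24 for Slc43a1. Ratios of day 4 to day 0 levels in TPM moved by less than the replicate spread for all 9 genes.

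The replicate numbers were taken as labels only. Differences between replicates correlated by 0.034, 0.030 and 0.117 between pairs of days, which cannot show whether same-numbered replicates were handled together. As a block the replicate numbers gave 8, 8 and 9 called genes for the 3 comparisons in place of 7, 9 and 9. The block gained Slc7a1 at the first step (edgeR adjusted p = 0.0270) and lost Slc1a5 at the second (edgeR adjusted p = 0.0572). The total of called genes in each related list stayed within 1.5 times of its value under the 7 alternatives run on it. Among other plasma membrane transporters, though, the lower calls went from 2 to 1 or 4 and the higher calls from 8 to 7 or 9. With 2 libraries per day, changes of single steps near 0.3 on the log2 scale lay close to the limit of what the fit could call.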
